A study of Mus musculus with 10 samples.

Results

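Aquaporins are channel proteins that let water, and in some members glycerol and other small solutes, cross cell membranes. The 5 aquaporin genes described here are Aqp1, Aqp3, Aqp5, Aqp8 and Aqp9, out of 12393 genes with a single symbol in the array's annotation. They were chosen by name, and 8 of the 22690 probe sets on the array were annotated to them, 1 each for Aqp1, Aqp5 and Aqp8, 3 for Aqp3 and 2 for Aqp9. Where a gene had several probe sets, the one with the highest mean stood for it.

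Each gene was followed across 5 FACS-sorted cell populations of the mouse paw pad, where the sweat glands of mice lie. They were gland myoepithelial cells (the contractile outer cells of the secretory coil), gland luminal cells (the secreting inner cells of the coil), basal cells and suprabasal cells of the straight duct, and palmoplantar epidermis. All came from female CD1 mice of wild-type genotype, with no treatment given in the labels, and each population was hybridised to 2 arrays that the labels call biological replicates. The age of the mice, the number of animals behind an array and the surface markers used for sorting are not given in the sources used here.

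Water leaves the blood for the sweat through the cells of the secretory coil, and the duct then changes the salt content of the fluid on its way to the skin surface. Aqp1, Aqp5 and Aqp8 are classed as water channels, whereas Aqp3 and Aqp9 are aquaglyceroporins, which also pass glycerol. In mice Aqp5 is best known from the apical membrane of secreting cells in salivary and sweat glands, Aqp3 from the membrane of keratinocytes in the skin, and Aqp1 from red blood cells, kidney tubules and the endothelium of many vessels.

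Aqp5 was brightest in luminal cells and Aqp3 in epidermis, and their promoters are shown as examples. Each line gives the 250 bases before the gene's start, 5′ to 3′ on the gene's own strand, from RefSeq in build GRCm38.p6. Capitals mark every TATAAA (the core of a TATA box) and every GGGCGG (a GC box), which were searched on both strands, so that a GC box on the other strand appears as CCGCCC.
Aqp3, chr4:41098184-41098433, minus strand: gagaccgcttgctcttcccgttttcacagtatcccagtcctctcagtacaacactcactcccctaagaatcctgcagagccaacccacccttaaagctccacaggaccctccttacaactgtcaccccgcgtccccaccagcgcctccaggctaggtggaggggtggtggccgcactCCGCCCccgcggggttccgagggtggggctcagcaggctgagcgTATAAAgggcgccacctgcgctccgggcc
Aqp5, chr15:99590778-99591027, plus strand: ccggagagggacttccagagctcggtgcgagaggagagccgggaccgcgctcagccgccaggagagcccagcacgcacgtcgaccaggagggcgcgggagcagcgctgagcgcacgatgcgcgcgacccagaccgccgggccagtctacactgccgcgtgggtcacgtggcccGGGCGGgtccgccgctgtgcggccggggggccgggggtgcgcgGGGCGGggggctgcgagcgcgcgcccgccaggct

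The Aqp3 window held 1 TATAAA, which began 29 bases before the gene's start, and 1 GGGCGG on the other strand, 73 bases before it. The Aqp5 window held no TATAAA and 2 GGGCGG, which began 77 and 34 bases before the start. Neither motif overlapped another. Of all 32851 windows of this length in the RefSeq table, 12.4% held TATAAA and 32.7% held GGGCGG. The Aqp5 window was 78.4% G and C with 38 CpG, more CpG than in 98.1% of all windows, and the Aqp3 window was 64.0% G and C with 14 CpG, more than in 70.6%. The median window was 52.4% G and C with 6 CpG. These matches describe the letters of the windows and were not set against the array signal.

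In the same RefSeq annotation Aqp5 lies on chromosome 15 between Aqp2 and Aqp6, and Aqp3 lies on chromosome 4 next to Aqp7. Of the 7 other aquaporin genes looked for, Mip, Aqp2, Aqp4 and Aqp7 had a probe set of their own, and Aqp6, Aqp11 and Aqp12 were not analysed here. None of these 4 passed the filter on low values, which asked for a signal above the array's 40th percentile on at least 2 of the 10 arrays. Aqp2, the neighbour of Aqp5 and the vasopressin-regulated channel of the kidney, had its highest signal, 58.4, on a luminal array, which was its single value above the percentile. Aqp7, the neighbour of Aqp3 and a glycerol channel of fat cells, did not exceed 34.5 on the probe set that stood for it and 40.8 on the other.

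The signals are MAS5 values on a linear scale, scaled by the authors to the same trimmed mean on every array. The 8 gland and duct arrays had a median signal of 92.7 to 120.1 and the epidermis arrays of 65.7 and 67.3, and the 40th percentile lay between 33.6 and 60.5. The summed signal of the myoepithelial marker genes was highest in myoepithelial cells and that of the luminal marker genes in luminal cells. The basal keratinocyte sum was highest in duct basal cells and the epidermal differentiation sum in epidermis. Duct suprabasal cells had no marker list of their own. Not all members followed their sum. Krt15 and Trp63 of the basal keratinocyte list were brighter in myoepithelial than in duct basal cells. Krt5 and Krt14, also in the myoepithelial list, were brighter in duct basal than in myoepithelial cells. Krt7 and Foxa1 of the luminal list were brightest on duct suprabasal array 1. Among the 9310 genes tested, 1867 differed more than 2-fold between the 2 duct suprabasal arrays, against 505 to 827 between the arrays of each other population. Of the 2 duct suprabasal arrays, array 2 was the brighter for endothelial, fibroblast and fat cell genes, and of the 2 myoepithelial arrays, array 1 was the brighter for luminal genes. For the aquaporin calls that these arrays changed, and for the named differences of other genes that rest on them, values without them are given too, a choice made after seeing the data. Luminal array 2 was also brighter than luminal array 1 for fibroblast (median log2 difference 1.32), myeloid (1.69), endothelial (0.88) and myoepithelial genes (0.79). The same difference was 1.44 for Aqp1 and 1.22 for Aqp3. Differences of genes other than aquaporins are not given without this array. In sorted pools, fewer cells of a type and less RNA per cell cannot be told apart.

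Differences were tested with limma on log2(signal + 12), a scale that understates the change of dim genes, and with Benjamini-Hochberg adjustment over all 9310 genes and a threshold of 0.05. The p-values reflect only how far these arrays spread, and having 2 per population limits their precision. An exact permutation test of 2 arrays against 2 cannot go below p = 0.333. In the F test over the 5 populations 4 of the 5 aquaporins passed, Aqp8 being the exception, against 65.8% of all genes tested. One of the 4, Aqp9, entered the test only through the duct basal arrays, where it was high, so the count supports nothing about the family.

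The number of aquaporins that passed between each pair of populations is set beside the share of all genes that passed. Within the gland, 1 of the 5 differed between myoepithelial and luminal cells (all genes 31.1%), and within the duct 1 differed between basal and suprabasal cells (16.4%). Of the 5, 1 differed between myoepithelial and duct basal cells (24.3%), 2 between luminal and duct suprabasal cells (15.2%), 3 between luminal and duct basal cells (35.4%) and 2 between myoepithelial and duct suprabasal cells (17.4%). Against epidermis, 2 differed in myoepithelial cells (51.6%), 3 in luminal cells (45.3%), 2 in duct basal cells (34%) and 3 in duct suprabasal cells (46%). Pairs that share a population share its arrays, and with 5 genes these counts are only a description.

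**Figure D1:**
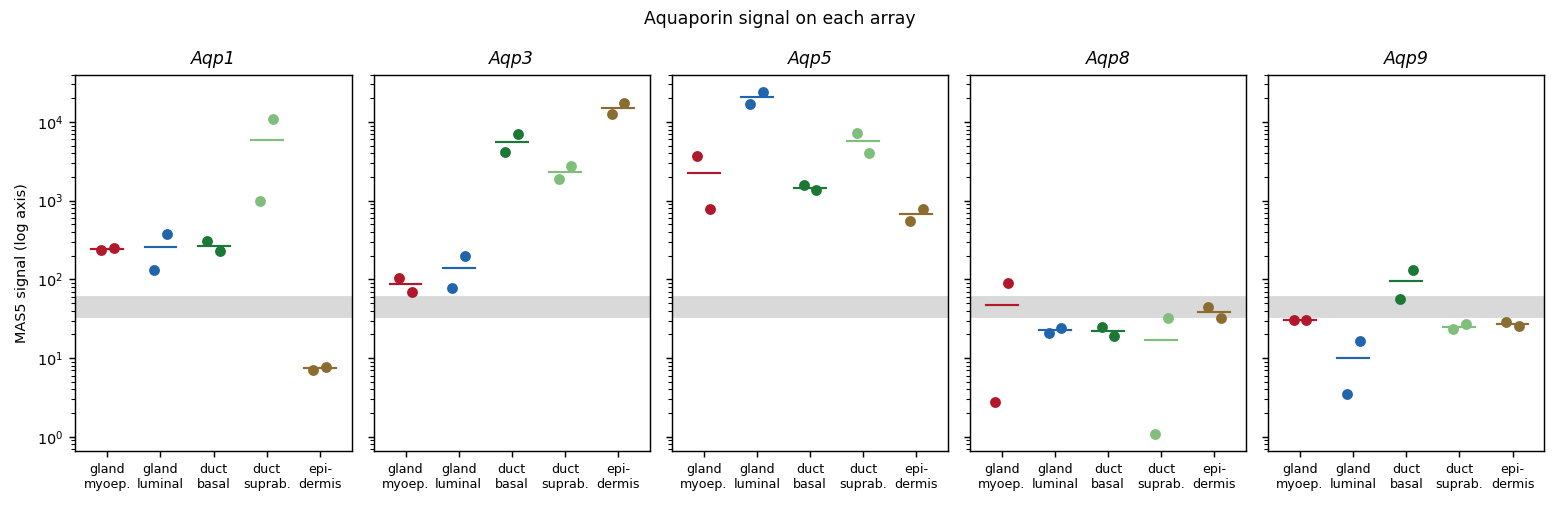
Signal of each aquaporin (MAS5, log axis) on the 2 arrays of each population, with a bar at the mean; the grey band spans the 40th percentiles of the 10 arrays. Aqp5 was brightest on the 2 luminal arrays, at 16770.8 and 24286.8, Aqp3 on the 2 epidermis arrays, at 12682.3 and 17656.1, and Aqp1 on the duct suprabasal arrays, at 984.2 and 10894.7, while Aqp8 and Aqp9 lay near or below the band on most arrays.

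Aqp5, the water channel of secreting cells, was highest in the luminal cells of the coil. Its signal was 3692.6 and 786.0 in myoepithelial cells, 16770.8 and 24286.8 in luminal cells, 1562.6 and 1374.2 in duct basal cells, 7265.0 and 4070.6 in duct suprabasal cells, and 553.9 and 782.1 in epidermis. Both luminal arrays stood above the 8 others, and both duct suprabasal arrays came next. The myoepithelial arrays lay on either side of the duct basal pair, with array 2 close to the brighter epidermis array. The gene was above the 40th percentile on all 10 arrays.

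Aqp5 averaged 2239.3 ± 2055.3 in myoepithelial cells and 20528.8 ± 5314.6 in luminal cells (SD, n = 2 each), a log2 difference of -3.55 (SE 0.60, limma adjusted p = 0.00254). Luminal cells exceeded duct basal cells by 3.77 (SE 0.60, adjusted p = 0.00142) and epidermis by 4.91 (SE 0.60, adjusted p = 0.000189) on the log2 scale. Duct suprabasal cells exceeded epidermis by 3.02 (SE 0.60, adjusted p = 0.0032), and by 3.44 (adjusted p = 0.00373) without duct suprabasal array 2. These 4 of the 10 pairs passed the test. In the order of the populations by mean log2 signal, luminal, duct suprabasal, myoepithelial, duct basal and epidermis, no pair of neighbours differed beyond the threshold.

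Of the 6 pairs that did not pass, the nearest to the threshold were luminal minus duct suprabasal, at 1.89 (adjusted p = 0.0631), and duct basal minus duct suprabasal, at -1.88 (adjusted p = 0.0615), both with an SE of 0.60, and with the replicate number as a block both passed (adjusted p = 0.0471 and 0.0446 in that order). Myoepithelial minus duct suprabasal was -1.66 (adjusted p = 0.0902), myoepithelial minus epidermis 1.36 (adjusted p = 0.0843), myoepithelial minus duct basal 0.22 (adjusted p = 0.833) and duct basal minus epidermis 1.14 (adjusted p = 0.172).

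Aqp5 followed the luminal marker genes between the 2 arrays of a population. In myoepithelial cells its log2 signal on array 2 minus array 1 was -2.21, and all 7 luminal markers were lower on array 2 too, with a median of -2.92 against -0.03 for all genes tested. In duct suprabasal cells the same difference was -0.83 for Aqp5 and had a median of -1.28 over the luminal markers, 7 of 7 being lower on array 2. The summed signal of the luminal markers, Krt8, Krt18, Krt19, Krt7, Cldn7, Cldn3 and Foxa1, was 15077.3 and 7262.3 in myoepithelial cells, 54156.0 and 60268.1 in luminal cells, 5729.4 and 3642.0 in duct basal cells, 33771.4 and 14265.4 in duct suprabasal cells, and 433.0 and 528.8 in epidermis. At least 6 of the 7 lay above the 40th percentile on every sweat gland and duct array and 1 and 2 on the epidermis arrays, and the part of luminal cells in the Aqp5 signal of the other populations was not tested.

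Single arrays decided several of the Aqp5 calls, and quantile normalization brought luminal minus duct suprabasal past the threshold, at 2.22 (adjusted p = 0.0449). Myoepithelial minus luminal was -4.66 (adjusted p = 0.000265) without myoepithelial array 1 and -2.45 (adjusted p = 0.00663) without array 2. Without myoepithelial array 1, myoepithelial minus duct suprabasal was -2.77 and passed (adjusted p = 0.00322), and without array 2 it was -0.56. Myoepithelial minus epidermis was 0.25 without array 1, and 2.47 without array 2, where it passed (adjusted p = 0.00171). The difference between luminal and duct suprabasal cells passed without myoepithelial array 1 (adjusted p = 0.0103) or array 2 (adjusted p = 0.0104), which change only the estimate of the spread, and without duct suprabasal array 1, at 2.31 (adjusted p = 0.0421), but not without duct suprabasal array 2, at 1.47 (adjusted p = 0.207). Duct basal minus duct suprabasal passed without either myoepithelial array (adjusted p = 0.00891 and 0.00895) and without duct suprabasal array 2, at -2.30 (adjusted p = 0.0449), and duct basal minus epidermis passed without either myoepithelial array (adjusted p = 0.0264 and 0.0265).

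**Figure D2:**
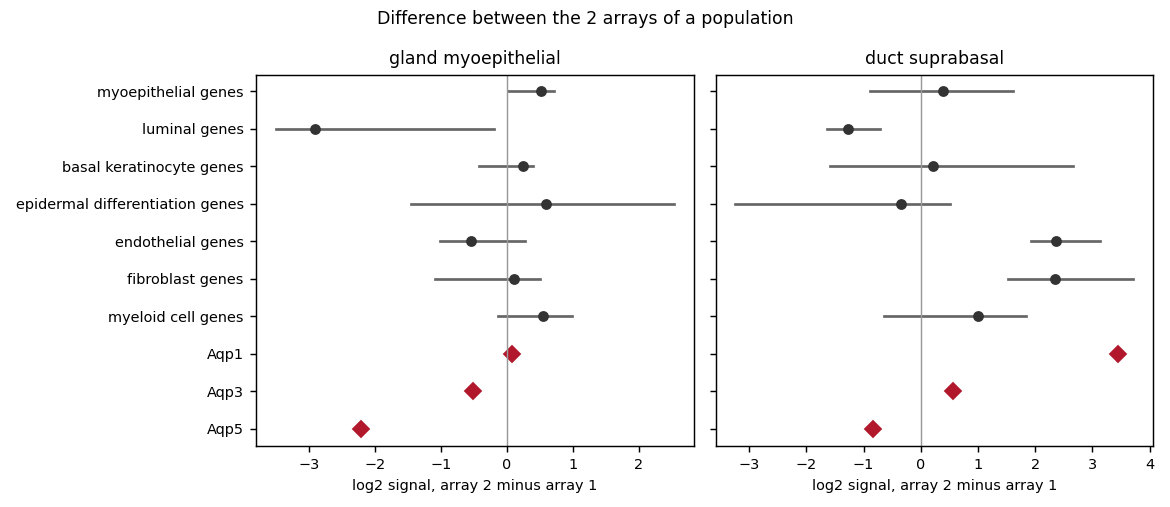
Log2 signal on array 2 minus array 1 within myoepithelial cells (left) and duct suprabasal cells (right), as the median (point) and range (line) of each marker list and as a diamond for each aquaporin. In myoepithelial cells Aqp5 (-2.21) lay with the luminal genes (median -2.92), and in duct suprabasal cells Aqp1 (3.45) lay beyond the endothelial genes (median 2.36).

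The 5 tested genes whose log2 signal was most like that of Aqp5 over the 10 arrays were Kcnmb2, a regulatory subunit of calcium-activated potassium channels (Pearson r = 0.987), Stxbp6, a binding partner of syntaxin (0.986), Pfkp, a phosphofructokinase of glycolysis (0.985), Rasl11b, a small GTPase (0.985), and Pmm1, a phosphomannomutase (0.985). Kcnmb2 had 98.7 and 20.2 in myoepithelial cells, 535.7 and 517.5 in luminal cells, 41.7 and 43.9 in duct basal cells, 218.7 and 70.0 in duct suprabasal cells, and 8.4 and 21.8 in epidermis. Like Aqp5, all 5 were higher on array 1 than on array 2 of both myoepithelial and duct suprabasal cells. They were chosen for likeness over these same arrays, so this is no separate result. The coefficients are descriptions, since the points share the same 10 arrays.

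Genes that drive fluid secretion with Aqp5 followed it in part. Secretion starts with a muscarinic or similar signal, calcium is released and enters through store-operated channels, chloride leaves the cell by calcium-activated channels and water follows, and the listed genes cover these steps. Of the 20 listed, 17 had a probe set and 15 passed the filter on low values. Between myoepithelial and luminal cells 1 rose and 9 fell in myoepithelial cells, with a median log2 difference of -1.02 against 0.08 for all genes, of which 31.1% passed. Between luminal and duct basal cells 10 rose and 1 fell in luminal cells (median 1.83 against -0.04, all genes 35.4%), and between luminal cells and epidermis 11 rose and none fell (median 1.90 against 0.16, all genes 45.3%).

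Best2, a bestrophin anion channel, had 240.2 and 9.9 in myoepithelial cells, 1725.5 and 2435.3 in luminal cells, 162.3 and 57.5 in duct basal cells, 5146.8 and 3076.4 in duct suprabasal cells, and 18.2 and 21.4 in epidermis. Unlike Aqp5, its brightest arrays were those of the duct suprabasal cells, and duct basal minus duct suprabasal was -5.18 (SE 0.92, adjusted p = 0.00746), and -5.55 (adjusted p = 0.011) without duct suprabasal array 2. Luminal minus duct suprabasal did not pass, at -0.95 (SE 0.92, adjusted p = 0.522) with all arrays and -1.32 (adjusted p = 0.48) without duct suprabasal array 2. Kcnn4, a calcium-activated potassium channel, had 2534.2 and 311.2 in myoepithelial cells, 11891.9 and 14278.4 in luminal cells, 1225.5 and 517.4 in duct basal cells, 6893.0 and 2082.1 in duct suprabasal cells, and 5.5 and 8.4 in epidermis. Its order of populations by mean log2 signal was that of Aqp5, but in both genes the place of myoepithelial above duct basal cells rested on myoepithelial array 1. Myoepithelial minus duct basal was 0.16 for Kcnn4 and 0.22 for Aqp5, and without that array -1.32 and -0.89. The myoepithelial minus luminal difference of Kcnn4 was -3.85 on the log2 scale (SE 0.87, adjusted p = 0.00953), and -5.33 without myoepithelial array 1.

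Ano1, a calcium-activated chloride channel, was 3.04 higher in luminal than in duct basal cells (SE 0.64, adjusted p = 0.00585) and 3.38 higher in luminal cells than in epidermis (SE 0.64, adjusted p = 0.00217). Itpr2, a calcium release channel of the endoplasmic reticulum, was 3.43 higher in luminal than in duct basal cells (SE 0.82, adjusted p = 0.0104), and Orai1, the pore of the store-operated calcium channel, was 2.26 higher (SE 0.23, adjusted p = 0.000138). Trpv4, a calcium channel opened by cell swelling, was the 1 gene of the list that passed in the opposite direction in these comparisons. It was 3.46 higher in myoepithelial than in luminal cells (SE 0.49, adjusted p = 0.00116). Its luminal minus duct basal difference was -2.45 (SE 0.49, adjusted p = 0.00443). Its signal was 251.4 and 418.4 in myoepithelial cells, against 13.3 and 25.1 in luminal cells, and without myoepithelial array 1 the difference between these layers was 3.81 (adjusted p = 0.00343).

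Slc12a2, the sodium, potassium and chloride cotransporter that loads secreting cells with chloride, did not separate the gland layers, with 23443.8 and 38537.4 in myoepithelial cells and 23970.6 and 37865.6 in luminal cells. It was 2.65 higher in luminal cells than in epidermis (SE 0.31, adjusted p = 0.000147), where it had 4472.6 and 5105.2. Between luminal and duct suprabasal cells Orai1 was the 1 gene of the list that passed, at 0.91 (SE 0.23, adjusted p = 0.0289), and without duct suprabasal array 2 it did not pass, at 0.87 (adjusted p = 0.0783). Between the duct layers Best2 and Orai1 fell in basal cells and none rose, with a median log2 difference of -1.49 over the list against -0.02 for all genes. Of all genes 16.4% passed between the duct layers and 15.2% between luminal and duct suprabasal cells. Without myoepithelial array 1 and duct suprabasal array 2 the median of the list between the duct layers was -2.02. That setting was chosen after seeing the data and leaves 1 array in each of those populations. In that setting the median between luminal and duct basal cells was 1.83.

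**Figure D3:**
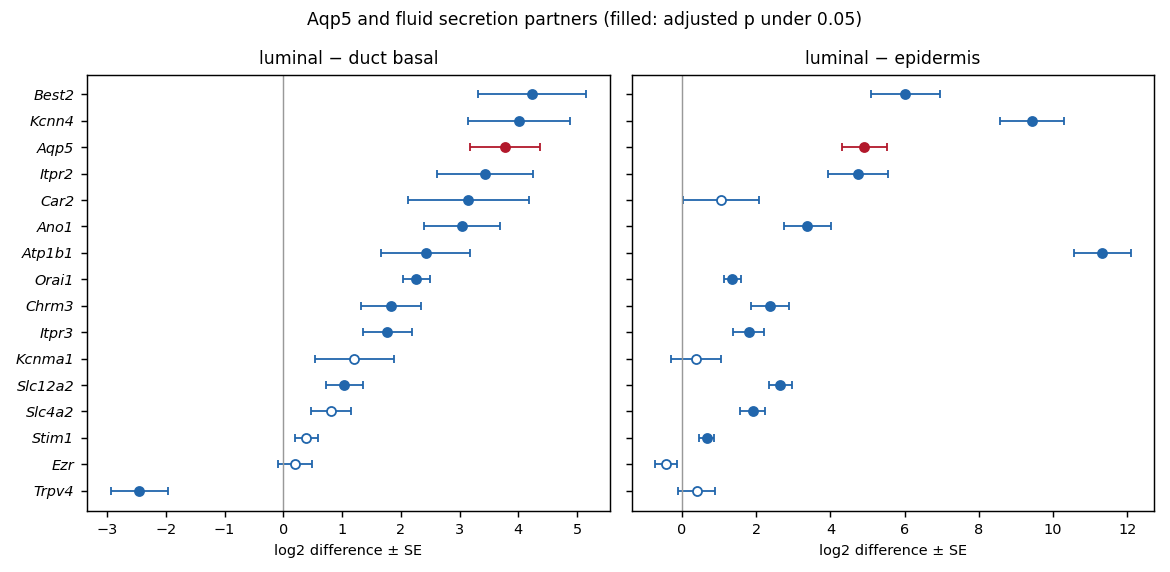
Log2 difference ± SE of Aqp5 (red) and the 15 tested fluid secretion genes (blue) between luminal and duct basal cells (left) and between luminal cells and epidermis (right), filled where the adjusted p was under 0.05. Aqp5 lay among the largest differences on the left, at 3.77, next to Kcnn4 at 4.01 and Itpr2 at 3.43, and Trpv4 alone lay below 0 and past the threshold.

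Aqp1, a water channel of red blood cells and endothelium, was highest in duct suprabasal cells and near the bottom of the scale in epidermis. Its signal was 234.7 and 248.3 in myoepithelial cells, 131.8 and 378.2 in luminal cells, 303.5 and 228.2 in duct basal cells, 984.2 and 10894.7 in duct suprabasal cells, and 7.0 and 7.7 in epidermis. Both duct suprabasal arrays stood above the 8 others, and both epidermis arrays stood below them and under the 40th percentile. The 6 arrays of the other populations overlapped one another. The 2 duct suprabasal values were 11.07-fold apart, the widest gap between arrays of a population among the signals of Aqp1, Aqp3 and Aqp5.

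The log2 difference of Aqp1 from duct suprabasal cells was -3.70 in myoepithelial cells (limma adjusted p = 0.0217), -3.80 in luminal cells (adjusted p = 0.0236) and -3.58 in duct basal cells (adjusted p = 0.0282), each with an SE of 0.90. Against epidermis it was higher by 3.71 in myoepithelial cells (adjusted p = 0.00744), by 3.61 in luminal cells (adjusted p = 0.00942), by 3.83 in duct basal cells (adjusted p = 0.0106) and by 7.41 in duct suprabasal cells (adjusted p = 0.00026). The other 3 of the 10 pairs, among myoepithelial, luminal and duct basal cells, lay between -0.22 and 0.10 with an SE of 0.90 and did not pass.

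Aqp1 and the endothelial marker genes were both higher on array 2 of the duct suprabasal cells. In duct suprabasal cells its log2 signal on array 2 exceeded that on array 1 by 3.45, and all 8 tested endothelial markers were higher on array 2 too, by a median of 2.36 and a range of 1.92 to 3.13, against -0.02 for all genes. In myoepithelial cells the same difference was 0.08 for Aqp1 and had a median of -0.55 over the endothelial markers, 2 of 8 being higher on array 2. In luminal cells these values were 1.44 and 0.88 (7 of 8 higher). They were -0.39 and -0.94 in duct basal cells (1 of 8) and 0.05 and 0.46 in epidermis (6 of 8). The summed signal of the 9 endothelial markers on the array was 382.6 and 275.2 in myoepithelial cells, 294.0 and 772.7 in luminal cells, 808.6 and 456.2 in duct basal cells, 3344.8 and 18987.8 in duct suprabasal cells, and 87.8 and 157.9 in epidermis. Of these 9 genes, 8 and 9 lay above the 40th percentile on the duct suprabasal arrays, 3 to 7 on the other gland and duct arrays, and 0 and 1 on the epidermis arrays.

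Fibroblast markers were also higher on duct suprabasal array 2, all 8 of them, by a median of 2.35, and the 2 tested fat cell markers by a median of 2.43. Of the 4 tested pericyte markers 3 were higher there, with a median over the 4 of 2.45. The fibroblast sum was 17122.4 and 93007.8 in duct suprabasal cells, and the fat cell sum was 3584.4 and 23328.9. Most of the fat cell sum came from 1 gene, Fabp4, with 3417.2 and 22498.8, while Adipoq had 143.6 and 679.9 and Cidec 9.6 and 32.6. Of the 4 red blood cell markers with a probe set, at most 1 lay above the 40th percentile on any array, and their sum was between 32.0 and 109.5. The part of endothelial cells or other cells in the Aqp1 signal was not tested.

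Without duct suprabasal array 2 the difference between duct basal and duct suprabasal cells was -1.86 (adjusted p = 0.034), and without array 1 it was -5.31 (adjusted p = 0.000444). Leaving out 1 array of another population kept the size near -3.58 but ended this call without duct basal array 1 (adjusted p = 0.086), duct basal array 2 (adjusted p = 0.144), epidermis array 1 (adjusted p = 0.0539) or epidermis array 2 (adjusted p = 0.054). Luminal minus duct suprabasal lost its call without luminal array 1, at -3.08 (adjusted p = 0.151), and without luminal array 2, at -4.52 (adjusted p = 0.0543). Myoepithelial minus duct suprabasal lost it without myoepithelial array 1, at -3.66 (adjusted p = 0.0787), and without array 2, at -3.74 (adjusted p = 0.105). Without duct suprabasal array 2 the luminal difference was -2.07 and the myoepithelial difference -1.97. When only the compared arrays were fitted, none of these differences from duct suprabasal cells passed (adjusted p = 0.137 to 0.151).

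Against epidermis, the luminal difference in Aqp1 missed the threshold without luminal array 2, at 2.89 (adjusted p = 0.0737), and without epidermis array 1, at 3.59 (adjusted p = 0.051). The duct basal difference missed it without duct basal array 1 (adjusted p = 0.0688), epidermis array 1 (adjusted p = 0.0615) or epidermis array 2 (adjusted p = 0.0567). With 47 in place of 12 added to the signal, the luminal difference was 2.34 (adjusted p = 0.0546) and the duct basal difference 2.51 (adjusted p = 0.0532). Duct suprabasal minus epidermis passed with each single array left out and was 5.69 (adjusted p = 6.84e-05) without duct suprabasal array 2.

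The genes most like Aqp1 over the 10 arrays were Pcolce, which enhances procollagen processing (r = 0.989), Serping1, an inhibitor of complement C1 (0.989), Ap1s2, a subunit of a clathrin adaptor (0.981), Sptbn1, a spectrin (0.974), and Cd34, a surface protein of blood progenitors and endothelium (0.973). Cd34 had 51.2 and 65.0 in myoepithelial cells, 60.3 and 210.7 in luminal cells, 129.8 and 129.6 in duct basal cells, 1115.2 and 8181.9 in duct suprabasal cells, and 2.1 and 2.0 in epidermis. All 5 were brightest on duct suprabasal array 2, as Aqp1 was, which is no separate result since they were chosen for likeness over these arrays.

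Aqp8, a water channel known from mouse liver, pancreas and colon, was dim in all populations and passed in no comparison of all 10 arrays. It had 2.8 and 91.2 in myoepithelial cells, 20.9 and 24.2 in luminal cells, 24.8 and 19.2 in duct basal cells, 1.1 and 32.4 in duct suprabasal cells, and 44.6 and 32.8 in epidermis. The 2 myoepithelial values lay far apart and on either side of those of luminal, duct basal and epidermis arrays, while both epidermis values lay above all luminal, duct basal and duct suprabasal values. Of the 10 arrays, 2 lay above the 40th percentile. None of the 10 pairs passed, the largest log2 difference being -1.06 in duct suprabasal cells minus epidermis (SE 0.87, limma adjusted p = 0.35), and the F test gave an adjusted p of 0.823.

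The 2 dimmest Aqp8 values, 2.8 and 1.1, were on myoepithelial array 1 and duct suprabasal array 1. With myoepithelial array 1 and duct suprabasal array 2 left out, the F test of Aqp8 passed (adjusted p = 0.0168), with 1 value left in each of those populations and its spread assumed to be that of the others. The genes most like it, Homer3, Pvalb, Usp17la, Hlcs and Rrp8, had coefficients of 0.794 to 0.858, and at such low signal these are not a finding.

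Aqp3, the water and glycerol channel of keratinocytes, was highest in epidermis, lower in the duct and far lower in the gland. Its brightest probe set had 104.8 and 69.5 in myoepithelial cells, 78.1 and 198.6 in luminal cells, 4200.0 and 6953.1 in duct basal cells, 1866.4 and 2754.3 in duct suprabasal cells, and 12682.3 and 17656.1 in epidermis. Epidermis, duct basal, duct suprabasal and gland arrays formed 4 steps that did not overlap, and the 2 gland populations overlapped with each other. All 10 arrays lay above the 40th percentile.

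Aqp3 averaged 87.2 ± 25.0 in myoepithelial cells and 5576.6 ± 1946.7 in duct basal cells (SD, n = 2 each), a log2 difference of -5.79 (SE 0.42, limma adjusted p = 3.37e-05), and -6.05 (adjusted p = 0.000298) without myoepithelial array 1. Luminal minus duct suprabasal was -4.05 (adjusted p = 0.000986), luminal minus duct basal -5.30 (adjusted p = 4.08e-05) and myoepithelial minus duct suprabasal -4.55 (adjusted p = 0.000231), each with an SE of 0.42. Against epidermis the differences were -7.26 in myoepithelial cells, -6.76 in luminal cells, -1.47 in duct basal cells and -2.72 in duct suprabasal cells, with adjusted p-values of 2.93e-06, 5.26e-06, 0.0254 and 0.000932 in that order. The 2 pairs that did not pass were the layers of 1 structure, myoepithelial minus luminal at -0.50 (adjusted p = 0.413) and duct basal minus duct suprabasal at 1.25 (adjusted p = 0.0749), which passed with the replicate number as a block (adjusted p = 0.0315).

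The step from epidermis to duct basal cells rested on single arrays. Without duct basal array 1 it was -1.10 (adjusted p = 0.168), without epidermis array 1 -1.71 (adjusted p = 0.0642) and without epidermis array 2 -1.23 (adjusted p = 0.153). Duct basal minus duct suprabasal passed without luminal array 1 (adjusted p = 0.0459) or luminal array 2 (adjusted p = 0.0461), at the same size of 1.25. Luminal minus duct suprabasal missed the threshold when only the compared arrays were fitted (adjusted p = 0.0534).

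The 2 other Aqp3 probe sets gave the same order of mean signals, epidermis, duct basal, duct suprabasal and gland cells. The brighter of them had 29.6 and 42.3 in myoepithelial cells, 22.1 and 50.2 in luminal cells, 1608.6 and 3516.1 in duct basal cells, 832.5 and 1342.6 in duct suprabasal cells, and 7451.2 and 11223.6 in epidermis. The dimmer had 11.1 and 4.3 in myoepithelial cells, 1.8 and 4.7 in luminal cells, 313.2 and 1100.6 in duct basal cells, 239.3 and 545.9 in duct suprabasal cells, and 3961.5 and 7012.1 in epidermis. In a fit with each of 14798 probe sets as a feature of its own, which was chosen after seeing the data, duct basal minus epidermis was -1.94 (SE 0.43, adjusted p = 0.0095) for the brighter and -3.13 (SE 0.58, adjusted p = 0.00394) for the dimmer. Duct basal minus duct suprabasal passed for neither, at 1.16 (adjusted p = 0.112) and 0.68 (adjusted p = 0.481). The arrays of the duct layers overlapped in the dimmer probe set. Above the 40th percentile lay 7 arrays of the brighter and 6 of the dimmer.

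**Figure D4:**
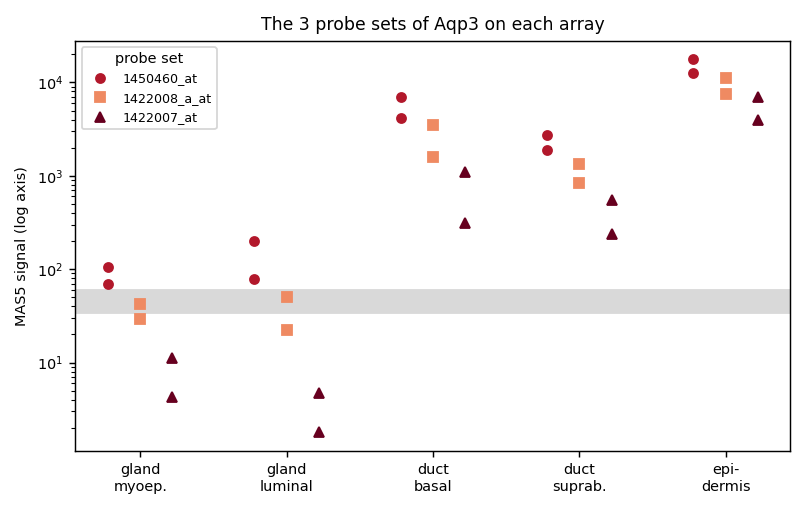
Signal of the 3 probe sets of Aqp3 (MAS5, log axis) on the 2 arrays of each population; the grey band spans the 40th percentiles of the 10 arrays. In each probe set the epidermis arrays were brightest, up to 17656.1, 11223.6 and 7012.1, and the gland arrays dimmest, and levels are not compared between probe sets.

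As a sum, epidermal differentiation genes followed the same broad steps as Aqp3. The summed signal of the 6 such markers on the array was at most 1433.9 on the gland arrays, 23347.0 and 45138.0 in duct basal cells, 22946.3 and 24760.7 in duct suprabasal cells, and 139374.8 and 129016.7 in epidermis. Not every gene of the list followed this sum. Lor had at most 83.2 in gland cells and 75.3 to 119.1 in duct cells, against 1125.2 and 1009.0 in epidermis. Ivl had at most 15.0 in gland and duct cells. The part of differentiating cells in the duct signal of Aqp3 was not tested. The genes most like Aqp3 were Dmkn, a secreted protein of differentiating epidermis (r = 0.994), Mycl, a Myc family transcription factor (0.994), Mt4, a metallothionein of stratified epithelium (0.991), Fgfbp1, which binds fibroblast growth factors (0.987), and Crabp2, a retinoic acid binding protein (0.986). Crabp2 had at most 7.2 in gland cells, 1403.7 and 1643.4 in duct basal cells, 223.1 and 336.5 in duct suprabasal cells, and 4588.3 and 4998.1 in epidermis. These genes too were chosen for likeness over the same arrays, so this is no separate result.

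Glycerol, which Aqp3 and Aqp9 pass, is also released and used inside cells by lipid metabolism. The listed genes of glycerol and lipid metabolism did not move one way with Aqp3. Of 15 listed genes 12 had a probe set and all 12 passed the filter. In duct basal cells 4 were higher and 2 lower than in epidermis (median 0.67 against 0.24 for all genes, of which 34% passed), and after quantile normalization 2 were higher and 2 lower (median 0.24 against 0.01). In luminal cells 7 were higher and 2 lower than in epidermis (median 1.72 against 0.16 for all genes, of which 45.3% passed). Between luminal and duct basal cells 4 were higher and 2 lower (all genes 35.4%), between myoepithelial and luminal cells 5 and 3 (31.1%), and between the duct layers 3 were lower in basal cells and none higher (16.4%).

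Dgat2, which makes triglyceride, was highest in epidermis as Aqp3 was, with 289.0 and 544.0 in myoepithelial cells, 113.1 and 155.4 in luminal cells, 179.4 and 287.2 in duct basal cells, 243.1 and 361.0 in duct suprabasal cells, and 2226.9 and 1438.9 in epidermis. Its duct basal minus epidermis difference was -2.91 on the log2 scale (SE 0.38, adjusted p = 0.000586). Gpd1, the cytosolic glycerol-3-phosphate dehydrogenase, ran the other way, 4.47 higher in luminal cells than in epidermis (SE 0.38, adjusted p = 2.64e-05). It had 459.8 and 429.9 in luminal cells, against 10.4 and 6.9 in epidermis. Pld2, a phospholipase D reported to act with Aqp3 in mouse keratinocytes, had a luminal minus duct basal difference of -1.99 (SE 0.32, adjusted p = 0.00155). Unlike Aqp3, it was not highest in epidermis, with 126.9 and 106.9 there. It had 315.7 and 269.7 in duct basal cells and 178.7 and 174.5 in myoepithelial cells.

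Aqp9, which passes glycerol and urea and is best known from liver, was brightest in duct basal cells. It had 30.9 and 30.5 in myoepithelial cells, 3.5 and 16.3 in luminal cells, 57.2 and 132.5 in duct basal cells, 23.3 and 27.0 in duct suprabasal cells, and 28.6 and 25.7 in epidermis. The duct basal arrays were the brightest 2 of the 10 and the only ones above the 40th percentile, and the luminal arrays were the dimmest 2. The gene thus passed the filter only through the population where it was high, so its F test and its differences from duct basal cells are given as descriptions and support no result.

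In that sense the F test of Aqp9 had a limma adjusted p of 0.0265, and luminal minus duct basal, the 1 pair of 10 under the threshold, was -2.26 (SE 0.49, adjusted p = 0.00654). Duct basal cells exceeded duct suprabasal cells by 1.43 (adjusted p = 0.0765) and epidermis by 1.35 (adjusted p = 0.0586), and myoepithelial minus duct basal was -1.23 (adjusted p = 0.1), none of which passed. Without duct basal array 2 luminal minus duct basal was -1.72 (adjusted p = 0.0532), and without luminal array 1 it was -1.82 (adjusted p = 0.0557). Without duct basal array 1 the difference to epidermis was 1.88 and passed (adjusted p = 0.0449). The F test missed the threshold without duct basal array 2 (adjusted p = 0.132), luminal array 1 (0.0775), epidermis array 1 (0.0527) or epidermis array 2 (0.0524).

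The other probe set of Aqp9 lay below the 40th percentile on all 10 arrays and was not tested, with 31.9 and 1.7 in myoepithelial cells, 14.9 and 15.0 in luminal cells, 16.9 and 29.7 in duct basal cells, 9.7 and 2.8 in duct suprabasal cells, and 17.5 and 4.6 in epidermis. It did not repeat the separation of the duct basal arrays, since a myoepithelial array was its brightest. Human leukocytes also use AQP9, and the 9 myeloid markers summed to 4919.2 and 6778.4 in myoepithelial cells, 255.1 and 904.9 in luminal cells, 552.5 and 395.9 in duct basal cells, 732.0 and 1600.2 in duct suprabasal cells, and 256.2 and 246.9 in epidermis. The part of myeloid cells in the Aqp9 signal was not tested.

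The genes most like Aqp9 were Pprc1, a coactivator of mitochondrial genes (r = 0.955), Ddx39b, an RNA helicase of mRNA export (0.953), Mybbp1a, a nucleolar protein (0.944), Cad, an enzyme of pyrimidine synthesis (0.931), and Hspa8, a chaperone (0.922). Cad had 288.5 and 396.3 in myoepithelial cells, 64.7 and 126.8 in luminal cells, 638.8 and 767.6 in duct basal cells, 164.3 and 290.3 in duct suprabasal cells, and 256.4 and 285.3 in epidermis.

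Other carriers of urea and small solutes were looked at beside Aqp9, of which 8 had a probe set and 6 were tested. In luminal cells 2 of the 6 were higher and 1 was lower than in duct basal cells, where 35.4% of all genes passed, so this count is no result about the list. Slc16a1, a lactate and monocarboxylate transporter, had 853.9 and 857.9 in myoepithelial cells, 24.4 and 64.5 in luminal cells, 3092.4 and 2959.6 in duct basal cells, 396.7 and 786.1 in duct suprabasal cells, and 2789.5 and 2220.6 in epidermis. As with Aqp9 its luminal arrays were the dimmest, and luminal minus duct basal was -5.85 (SE 0.38, adjusted p = 1.46e-05). Slc14a1, a urea transporter, ran the other way, with 296.1 and 231.7 in luminal cells, against 51.5 and 57.7 in duct basal cells, a difference of 2.04 (SE 0.40, adjusted p = 0.00397).

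Of 11 listed regulators of salt and water balance 8 had a probe set and 6 were tested, and 3 of these were higher and none lower than in epidermis in each of myoepithelial, luminal and duct basal cells, and 2 were higher and none lower in duct suprabasal cells. Among all genes 51.6%, 45.3%, 34% and 46% passed in these 4 comparisons. The count in duct basal cells lay above that share, and the others lay near or below it. After quantile normalization 2 were higher in luminal and 1 in duct basal cells. With 6 genes tested, these counts are only a description. Sgk1, a kinase that acts downstream of aldosterone, had 11320.5 and 6956.4 in myoepithelial cells, 19962.7 and 29889.7 in luminal cells, 9204.2 and 10167.3 in duct basal cells, 17954.8 and 12718.6 in duct suprabasal cells, and 1945.9 and 1769.2 in epidermis. It was higher in luminal cells than in epidermis by 3.71 (SE 0.29, adjusted p = 1.67e-05).

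**Figure D5:**
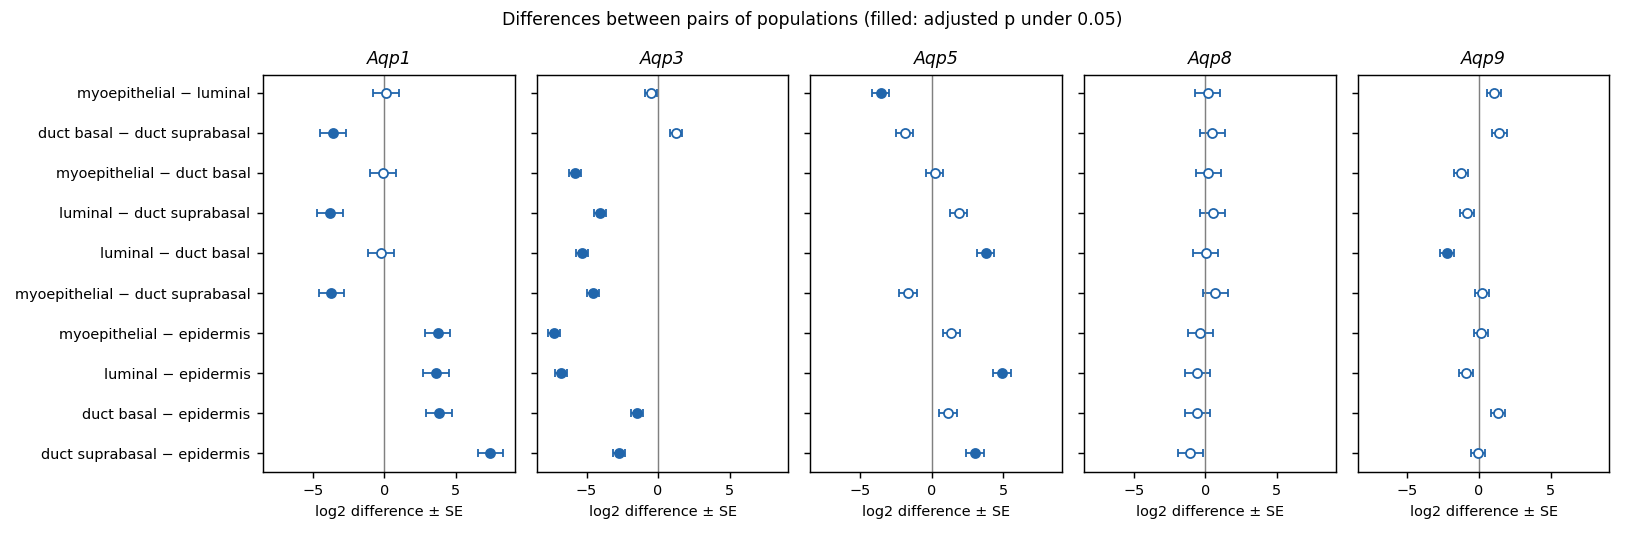
Log2 difference ± SE (on log2(signal + 12)) of each aquaporin for the 10 pairs of populations, first population minus second, filled where the limma adjusted p was under 0.05. Aqp3 passed in 8 pairs, Aqp1 in 7, Aqp5 in 4, Aqp9 in 1 and Aqp8 in 0.

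Whether the difference between outer and inner layer was itself different in gland and duct depended on the model. The gland difference (myoepithelial minus luminal) minus the duct difference (basal minus suprabasal) was 3.68 for Aqp1 (SE 1.27, adjusted p = 0.0808), -1.75 for Aqp3 (SE 0.60, adjusted p = 0.0777) and -1.67 for Aqp5 (SE 0.84, adjusted p = 0.21), and 0 of the 5 passed in limma against 16% of all genes, with 2 of the 5 at an unadjusted p under 0.05. With the replicate number as a block Aqp1 (adjusted p = 0.0463) and Aqp3 (adjusted p = 0.0338) passed at the same size. The value for Aqp1 was 5.41 and passed without duct suprabasal array 1 (adjusted p = 0.00061), and was 1.95 without duct suprabasal array 2. The value for Aqp3 was -2.36 and passed without luminal array 1 (adjusted p = 0.0348). The value for Aqp5 was -2.78 and passed without myoepithelial array 1 (adjusted p = 0.013), and was -0.56 without array 2.

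Comparisons with epidermis depended on how arrays were scaled. The median difference of all genes was 0.28 in myoepithelial, 0.16 in luminal, 0.24 in duct basal and 0.25 in duct suprabasal cells minus epidermis, and quantile normalization moved it to -0.02, -0.03, 0.01 and -0.10. Of all calls, 61.4% were higher in myoepithelial cells than in epidermis, 67.7% in duct basal cells and 63.8% in duct suprabasal cells, and after quantile normalization 48.6%, 57.3% and 48%. Of the calls for the layer difference 62.8% were positive, and 51% after quantile normalization.

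The aquaporins kept their direction and their calls against epidermis under this scaling. Aqp1 was then 3.37 higher in myoepithelial, 3.43 in luminal, 3.60 in duct basal and 7.21 in duct suprabasal cells. Aqp3 was then -7.12, -6.47, -1.25 and -2.46 in those populations, the duct basal value with an adjusted p of 0.0466. Aqp5 was 5.21 higher in luminal and 3.0 in duct suprabasal cells.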

How the data were processed

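RNA of the sorted cells was isolated by Trizol extraction, and biotinylated cRNA made from it was hybridised to Affymetrix mouse arrays, per the labels' protocols. The authors deposited signal intensity made with MAS5, per the submitters' processing notes, and its version is not given in the sources used here. The values ran from 0.1 to 72213.2, and the mean without the highest and lowest 2% was 499.6 to 499.7 on every array. Detection calls were not used here, and the sort markers are not given in the sources used here.

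The array has 22690 probe sets, of which 20380 had 1 symbol, 691 had several and 1555 had none; the 64 controls were not tested. The brightest probe set by mean stood for each of 12393 genes. Intensities were converted to log2(signal + 12), 12 being the 20th percentile of all values. Genes that exceeded an array's 40th percentile on 2 or more arrays were tested (9310, including all 5 aquaporins) with limma 3.58.1 in R 4.3.3, in 1 model of all 10 arrays with 5 residual degrees of freedom, moderated variances with a trend and Benjamini-Hochberg adjustment. The fit was tested on simulated data.

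The aquaporins and the gene lists were chosen with earlier results of these data known. All aquaporin probe sets are named, with the 5 genes of highest Pearson correlation to each aquaporin over the 10 arrays and, of each list, members among the 5 largest differences past the threshold, or to describe a list. Slc12a2 values and the Aqp5 pattern beside its partners were picked after their values were seen. The labels give arrays the same replicate numbers but describe no pairing. Same-numbered arrays deviated together with correlations of 0.12 to 0.357 over genes in the 6 pairs of gland and duct populations and of 0.025 to 0.088 in the 4 pairs with epidermis, so values with the replicate block are printed beside gland and duct differences whose call they change. Alternatives were an added value of 1 or 47, quantile normalization, dropping the filter or raising it to the 60th percentile, the mean of a gene's probe sets, the replicate number as a block, only the arrays compared, and leaving out each array.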

Additional observations from a re-analysis of the deposited data

How the results depend on the processing

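Of the alternatives tried, none turned a called aquaporin difference round, and 65 of the 1111 aquaporin values moved across the threshold, 35 gaining a call and 30 losing one. With the replicate number as a block, adjusted p fell to 0.0315 for Aqp3 (1.25) and 0.0446 for Aqp5 (-1.88) in duct basal minus duct suprabasal, 0.0471 for Aqp5 (1.89) in luminal minus duct suprabasal, 0.0484 for Aqp9 (1.35) in duct basal minus epidermis, and 0.0463 for Aqp1 (3.68) and 0.0338 for Aqp3 (-1.75) in the layer difference, and it changed no other aquaporin call. The pairing check is given with the processing. With quantile normalization Aqp5 in luminal minus duct suprabasal was 2.22. With 47 added, Aqp1 was 2.34 in luminal and 2.51 in duct basal minus epidermis, and Aqp9 0.88 in duct basal minus epidermis. With the mean of all probe sets the F test of Aqp9 had an adjusted p of 0.115.

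With only the arrays compared, which leaves fewer residual degrees of freedom, Aqp1 was -3.58 in duct basal, -3.80 in luminal and -3.70 in myoepithelial minus duct suprabasal and Aqp3 -4.05 in luminal minus duct suprabasal without passing, while Aqp5 at 1.14 and Aqp9 at 1.35 passed in duct basal minus epidermis. The counts of all genes were 242 between the duct layers, 36 in luminal and 398 in myoepithelial minus duct suprabasal, against 1524, 1413 and 1621 with all arrays. With myoepithelial array 1 and duct suprabasal array 2 left out, chosen after seeing the data, Aqp8 passed in the F test (0.0168) and at 1.58 in myoepithelial minus luminal, 2.98 in myoepithelial minus duct suprabasal and -1.94 in duct suprabasal minus epidermis. Aqp5 passed at -2.30 in duct basal, 1.47 in luminal and -3.19 in myoepithelial minus duct suprabasal, at 1.14 in duct basal minus epidermis and at -2.36 in the layer difference, and Aqp1 did not pass at -1.94 in myoepithelial minus duct suprabasal.

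Leaving out each array in turn gave these ranges. The count of genes was 1439 to 3454 in myoepithelial minus luminal, 449 to 1982 in duct basal minus duct suprabasal, 1177 to 2833 in myoepithelial minus duct basal, 315 to 2046 in luminal minus duct suprabasal, 1945 to 3846 in luminal minus duct basal, 630 to 1992 in myoepithelial minus duct suprabasal, 1741 to 3747 in duct basal minus epidermis and 636 to 2034 in the layer difference. Aqp1 was -5.31 to -1.86 in duct basal, -5.52 to -2.07 in luminal and -5.43 to -1.97 in myoepithelial minus duct suprabasal, 2.89 to 4.33 in luminal and 3.63 to 4.03 in duct basal minus epidermis, and 1.95 to 5.41 in the layer difference. Aqp3 was 0.89 to 1.61 in duct basal minus duct suprabasal, -1.83 to -1.10 in duct basal minus epidermis and -2.36 to -1.13 in the layer difference. Aqp5 was -2.30 to -1.47 in duct basal, 1.47 to 2.31 in luminal and -2.77 to -0.56 in myoepithelial minus duct suprabasal, 0.25 to 2.47 in myoepithelial and 0.90 to 1.38 in duct basal minus epidermis, and -2.78 to -0.56 in the layer difference. Aqp9 was -2.79 to -1.72 in luminal minus duct basal and 0.82 to 1.88 in duct basal minus epidermis, and its F test had an adjusted p of 0.0226 to 0.132. The cause was not tested.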
